A study of Sus scrofa with 55 samples.

Results

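GDF9 and BMP15 are the growth factors by which an oocyte instructs the follicle cells around it. They were found in the deposited counts by their pig Ensembl symbols and are 2 of the 25880 genes listed: GDF9 (ENSSSCG00000014288) and BMP15 (ENSSSCG00000012310). In the RefSeq annotation of the assembly Sscrofa11.1 neither gene overlaps another annotated gene, and no positions are given because the build behind the counts is not given in the sources used here. The RNA was cytoplasmic, read by Smart-seq2 (single-cell cDNA made over the full transcript length) in 55 single wild-type oocytes (Sus scrofa) of 5 antral follicle stages. The stages in order hold 11, 12, 11, 11 and 10 oocytes, and the labels name the stages by number without follicle sizes.

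All oocytes came from 4 pubertal Landrace and Yorkshire gilts of 208 to 210 days. Every gilt had been given 5 IU of pregnant mare serum gonadotropin into the peritoneum, a hormone that drives antral follicle growth, and 48 h passed before the ovaries were removed; no stage has an unstimulated control. Gilt 201 gave 14 oocytes, gilt 205 gave 9, gilt 801 gave 12 with none at stage 5, and gilt 803 gave 20. The animal is the replicate, and the 55 oocytes form 19 combinations of gilt and stage. The genomic DNA of each cell had been spun off first, and the cDNA went through 16 PCR cycles.

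Both factors belong to the TGF-beta superfamily. They are made as precursors, cut by proprotein convertases, and secreted as homodimers or as a GDF9 and BMP15 heterodimer. GDF9 acts through the type II receptor BMPR2 and the type I receptor TGFBR1 and leads to phosphorylation of SMAD2 and SMAD3; BMP15 acts through BMPR2 and BMPR1B, mainly on SMAD1, SMAD5 and SMAD9. In granulosa and cumulus cells they support proliferation and cumulus expansion, and follistatin binds BMP15. Mice without Gdf9 have follicles arrested at the primary stage, and mutations of either gene alter ovulation rate in sheep.

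An oocyte's library held between 151104 and 38282850 counts (median 12139540). The 13 mitochondrially encoded protein genes took between 2.1% and 91.8% of an oocyte's counts. Of 19 oocyte marker genes other than GDF9 and BMP15, 13 were in the files, and ZP3, a protein of the egg coat, had counts in 55 of 55 oocytes. Their summed level did not bear out the label equally in every library. A library was called granulosa-rich where the summed CPM (counts of a gene per 1e+06 counts of the oocyte) of 21 granulosa and cumulus markers exceeded those of the oocyte markers. There were 14 such libraries, 12 of the 20 of gilt 803, 1 of gilt 201, 1 of gilt 801 and 0 of the 9 of gilt 205. The extreme was stage 5 gilt 803 oocyte 1, with 40.5 CPM of oocyte markers beside 6729 CPM of granulosa and cumulus markers, and ZP3 at 2.14 CPM. By stage they numbered 4, 1, 3, 4 and 2 from stage 1 to stage 5. The rule looks at granulosa and cumulus markers only. Stage 2 gilt 803 oocyte 3, not granulosa-rich, had 10523 CPM of blood, immune and endothelial markers beside 1512 CPM of oocyte markers. It stays among the libraries called not granulosa-rich below. In a library that also holds RNA of attached cells, a lower CPM of an oocyte gene and a larger share of other cells' RNA cannot be told apart.

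GDF9 was detected in every oocyte and took one of the larger shares of counts in most of them. It had at least 1 count in 55 of 55 oocytes, with a median of 832.1 CPM and a range from 0.509 to 5560 CPM. In 34 of 55 oocytes it was among the 100 genes with the most counts, and in 42 of 55 it reached 100 CPM. BMP15 had at least 1 count in 51 of 55 oocytes, with a median of 73.2 CPM and a highest value of 3439 CPM. It was among the 100 highest genes in 16 of 55 oocytes and reached 100 CPM in 26 of 55.

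Pooled over gilts and taken over all counts, the median of GDF9 was highest at stage 2 and lowest at stage 5, with very wide ranges. At stage 1 it lay between 19.2 and 3873 CPM with a median of 729.2 CPM. At stage 2 it lay between 6.21 and 3871 CPM with a median of 1338 CPM. At stage 3 it lay between 6.08 and 5560 CPM with a median of 1195 CPM. Stages 1, 2 and 3 thus covered nearly the same range. At stage 4 the lowest value was 1.45 CPM, the median 832.1 CPM and the highest 4165 CPM. At stage 5 the lowest was 0.509 CPM, the median 193.1 CPM and the highest 2281 CPM. Every pair of stages overlapped in GDF9, and in order of these pooled medians the stages ran 2, 3, 4, 1 and 5. Gilts contribute unequally to the stages, and within gilts the order differed: by mean log2(CPM + 1), GDF9 was highest at stage 2 in gilt 201, stage 3 in gilt 205, stage 4 in gilt 801 and stage 1 in gilt 803. It was lowest at stage 3 in gilt 201, stage 4 in gilt 205, stage 1 in gilt 801 and stage 5 in gilt 803. These orders changed with the total used. Over counts without the mitochondrially encoded genes, the pooled median was highest at stage 4, at 4321 CPM. It was between 3774 and 4061 CPM at stage 2, 3402 CPM at stage 3 and 2266 CPM at stage 1, and stage 5 stayed lowest. On that scale the mean log2(CPM + 1) was highest at stage 2 in gilts 201, 205 and 801 and at stage 1 in gilt 803.

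Pooled over gilts, BMP15 had its lowest median at stage 1 and its higher medians at stages 2 and 3. At stage 1 it lay between 0 and 291.2 CPM with a median of 27.3 CPM. At stage 2 it lay between 23.0 and 3439 CPM with a median of 186.7 CPM, and at stage 3 between 16.0 and 455.5 CPM with a median of 237.0 CPM. No oocyte of stage 2, stage 3 or stage 4 was without BMP15 counts. At stage 4 it lay between 1.62 and 1945 CPM with a median of 62.3 CPM, and at stage 5 between 0 and 326.8 CPM with a median of 51.8 CPM. The stages overlapped for BMP15 as well, and in order of the pooled medians they ran 3, 2, 4, 5 and 1. Within gilts BMP15 was highest at stage 3 in gilts 201 and 801 and at stage 2 in gilts 205 and 803, by mean log2(CPM + 1). It was lowest at stage 4 in gilts 201 and 205, at stage 1 in gilt 801 and at stage 5 in gilt 803. Over counts without the mitochondrially encoded genes, the pooled median was highest at stage 2, between 1590 and 1655 CPM. It was 848.9 CPM at stage 3, 233.8 CPM at stage 4 and 144.5 CPM at stage 1, again the lowest. On that scale the mean log2(CPM + 1) was highest at stage 3 in gilt 201 and at stage 2 in gilts 205, 801 and 803.

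**Figure D1:**
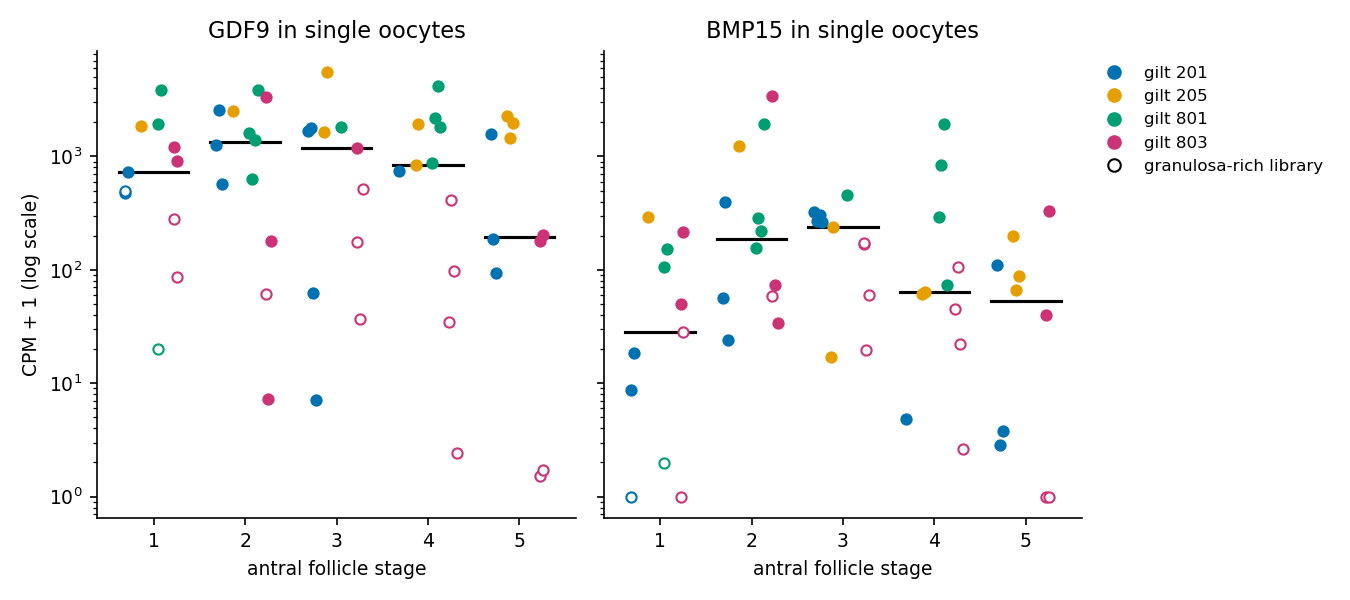
GDF9 (left) and BMP15 (right) in each of 55 oocytes as CPM + 1 on a log scale, by antral follicle stage. Colours mark the gilts, open points the 14 granulosa-rich libraries and black bars the stage medians, which lie between 193.1 and 1338 CPM for GDF9 and between 27.3 and 237.0 CPM for BMP15; the points of all stages overlap.

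Both genes had lower medians in the granulosa-rich libraries than in the others. GDF9 had a median of 73.6 CPM in the 14 granulosa-rich libraries (0.509 to 513.1 CPM) and of 1450 CPM in the other 41 (6.08 to 5560 CPM). BMP15 had a median of 19.8 CPM in the granulosa-rich libraries (0 to 171.1 CPM) and of 155.6 CPM in the other 41 (1.83 to 3439 CPM). The summed granulosa and cumulus markers ran from 4257 to 31896 CPM in the granulosa-rich libraries and from 26.9 to 11362 CPM in the others. AMH, a granulosa cell hormone, had 0 counts in every oocyte. Without these libraries the stage medians of GDF9 from stage 1 to stage 5 were 1204, 1404, 1662, 1814 and 825.1 CPM, and those of BMP15 were 105.6, 217.9, 266.3, 73.2 and 76.1 CPM. The part of attached cells in the differences between oocytes was not tested.

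The levels also differed between animals, here given as a description. GDF9 had a median of 650.7 CPM in gilt 201, 1929 CPM in gilt 205, 1820 CPM in gilt 801 and 177.1 CPM in gilt 803. BMP15 had a median of 39.3 CPM in gilt 201, 87.4 CPM in gilt 205, 251.2 CPM in gilt 801 and 46.6 CPM in gilt 803. Gilt 205, with 0 granulosa-rich libraries, never fell under 832.1 CPM of GDF9, whereas gilt 803 spanned 0.509 to 3355 CPM. Among oocytes of one gilt and stage the pooled SD of log2(CPM + 1) was 2.58 for GDF9 and 2.49 for BMP15, against 2.98 and 2.91 over all 55 oocytes.

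The comparison of stage 5 with stage 1 sets the latest antral stage against the earliest, and neither gene passed the test. On counts summed by gilt and stage and scaled by TMM (edgeR's trimmed mean of M-values), GDF9 averaged 1381 ± 1162 CPM at stage 5 and 1060 ± 632.1 CPM at stage 1 (SD, n = 3 and 4 gilts). The stage 5 sums were 1776 CPM in gilt 201, 2293 CPM in gilt 205 and 72.4 CPM in gilt 803. The stage 1 sums were 917.6, 517.4, 1972 and 831.3 CPM in gilts 201, 205, 801 and 803. GDF9 was thus higher at stage 5 in gilts 201 and 205 and lower in gilt 803.

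The fitted log2 change of GDF9 from this contrast was -1.45 ± 0.948 (SE; 95% interval -3.40 to 0.497; edgeR adjusted p = 0.940). Its sign rested on the model: it was 0.30 without gilt 803, 0.38 without gilt in the model and 1.00 with limma-voom. BMP15 averaged 118.7 ± 25.6 CPM at stage 5 and 68.4 ± 37.4 CPM at stage 1, a log2 change of 0.94 ± 1.02 (95% interval -1.15 to 3.04; edgeR adjusted p = 0.997). BMP15 sums at stage 5 were 107.0, 148.1 and 101.0 CPM in gilts 201, 205 and 803, each above the same gilt's 12.7, 81.3 and 86.3 CPM at stage 1. That agreement depended on the scaling: before TMM, gilt 205 had 123.7 CPM at stage 5 and 291.2 CPM at stage 1. In this comparison edgeR called 0 of 15637 genes (0%), with 840 at an unadjusted p under 0.05; DESeq2 called 365 and limma-voom 0.

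The clearest shift of either gene lay between stage 2 and stage 1, in BMP15, and it did not pass the adjusted test of the design. BMP15 sums were 491.7 CPM at stage 2 against 12.7 CPM at stage 1 in gilt 201, and 2892 CPM at stage 2 against 81.3 CPM at stage 1 in gilt 205. They were 526.5 CPM at stage 2 against 93.3 CPM at stage 1 in gilt 801, and 151.3 CPM at stage 2 against 86.3 CPM at stage 1 in gilt 803. BMP15 was higher at stage 2 in 4 of 4 gilts, by margins that differed widely. Gilt 205 enters with 1 oocyte at each of these stages. Before TMM scaling the sums were also higher at stage 2 in 4 of 4 gilts, at 177.1, 1233, 932.2 and 431.1 CPM against 7.52, 291.2, 98.98 and 107.9 CPM at stage 1 in gilts 201, 205, 801 and 803. The stage means were 1015 ± 1263 CPM at stage 2 and 68.4 ± 37.4 CPM at stage 1 (SD, n = 4 gilts each).

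The fitted log2 change of BMP15 was 3.33 ± 1.09 (95% interval 1.10 to 5.56), where the median change of all genes tested was -0.50. Its unadjusted edgeR p of 0.00501 ranked 90th of 15637 genes, which left an adjusted p of 0.692. edgeR called 0 genes in this comparison (0%), with 1034 at an unadjusted p under 0.05; DESeq2 called 415 and limma-voom 0. BMP15 passed with DESeq2 (log2 change 3.28, adjusted p = 0.0461), which made 221 false calls on data simulated for stage 5 against stage 1. It passed with edgeR without the low-count filter (3.37, adjusted p = 0.00890), where 111 of 23035 genes were called, 1 of them higher at stage 2. With edgeR without gilt 803 it also passed (4.51, adjusted p = 0.0416), where 50 of 15881 genes were called, 1 of them higher. It did not pass with limma-voom or in any other setting tried, and the change stayed between 2.25 and 4.51 when 1 gilt at a time was left out. Without the granulosa-rich libraries it was 3.29 (95% interval 1.44 to 5.14), with an edgeR unadjusted p of 0.000976 and an adjusted p of 1.00. In that setting 434 of 14300 genes had an unadjusted p under 0.05.

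GDF9 did not move in one direction between these stages. Its sums were 4121, 5866, 1335 and 145.1 CPM at stage 2 in gilts 201, 205, 801 and 803, against 917.6, 517.4, 1972 and 831.3 CPM at stage 1. On this scale GDF9 was higher at stage 2 in gilts 201 and 205 and lower in gilts 801 and 803. Before TMM scaling, whose factors ran from 0.27 to 3.58, gilt 801 had 2365 CPM at stage 2 and 2093 CPM at stage 1, so that GDF9 was then higher at stage 2 in 3 of 4 gilts. The fitted log2 change was -0.27 ± 0.844 (95% interval -2.01 to 1.46; edgeR adjusted p = 0.984), and it was 1.28 without gilt 803, 1.44 without gilt in the model and 1.67 with limma-voom.

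**Figure D2:**
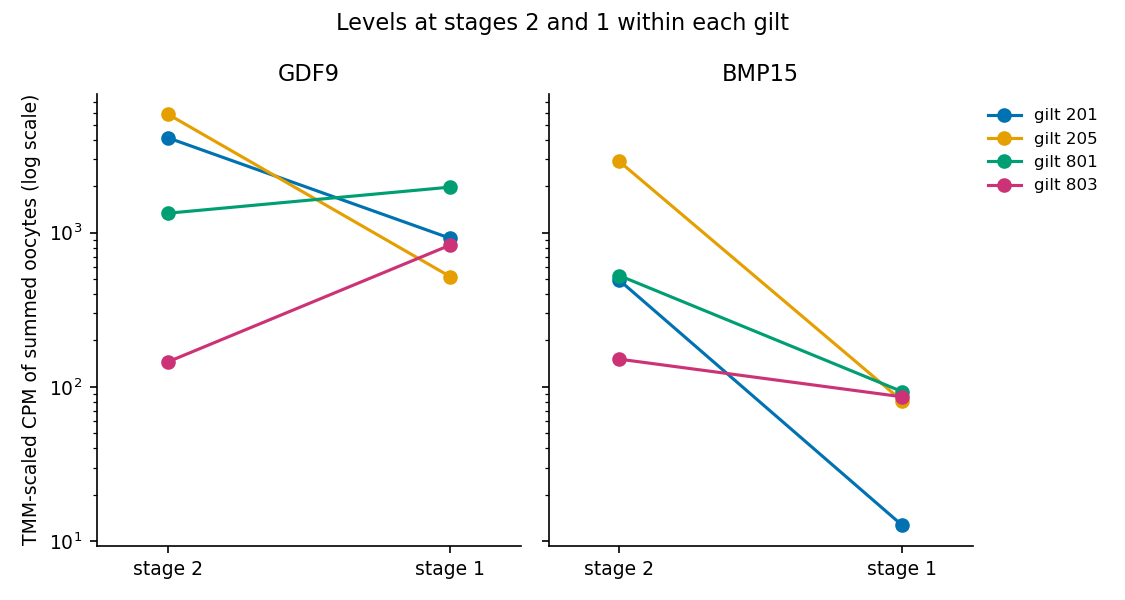
TMM-scaled CPM of the summed oocytes at stage 2 (left) and stage 1 (right) for GDF9 and BMP15, on a log scale, with 1 line per gilt. BMP15 was higher at stage 2 in 4 of 4 gilts, 151.3 to 2892 CPM against 12.7 to 93.3 CPM at stage 1, while GDF9 lines cross.

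Between the later neighbouring stages neither gene passed the test. At stage 3 against stage 2 GDF9 changed by 0.03 ± 0.766 on the log2 scale (edgeR adjusted p = 1.00) and BMP15 by -0.86 ± 1.06 (adjusted p = 0.995). TMM-scaled BMP15 averaged 409.9 ± 456.1 CPM at stage 3 and 1015 ± 1263 CPM at stage 2, and without gilt 205 the sign of its change turned, to 0.22. In this comparison edgeR called 0 genes (0%), with 728 at an unadjusted p under 0.05; DESeq2 called 311 and limma-voom 0.

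At stage 4 against stage 3 both genes were lower in the fit. GDF9 averaged 1195 ± 934.5 CPM at stage 4 and 2862 ± 3136 CPM at stage 3, a log2 change of -1.22 ± 0.785 (edgeR adjusted p = 0.998). BMP15 averaged 117.9 ± 160.8 CPM at stage 4 and 409.9 ± 456.1 CPM at stage 3, a log2 change of -2.49 ± 1.17 (unadjusted p = 0.0433, edgeR adjusted p = 0.998). The BMP15 value depended on single gilts: it was -0.39 without gilt 201, which had 8.66 CPM from 1 oocyte at stage 4 against 1078 CPM at stage 3, and -4.17 without gilt 801. With limma-voom it was -0.54, and the edgeR adjusted p was 1.00 with either gilt left out. Here edgeR called 0 genes (0%), with 646 at an unadjusted p under 0.05; DESeq2 called 266 and limma-voom 0.

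For stage 5 against stage 4 the fitted changes were small beside their errors. GDF9 averaged 1381 ± 1162 CPM at stage 5 and 1195 ± 934.5 CPM at stage 4, a log2 change of 0.01 ± 0.853 (edgeR adjusted p = 1.00; 95% interval -1.75 to 1.76). BMP15 averaged 118.7 ± 25.6 CPM at stage 5 and 117.9 ± 160.8 CPM at stage 4, a log2 change of 0.96 ± 1.17 (95% interval -1.45 to 3.38; edgeR adjusted p = 1.00). edgeR called 0 genes (0%), with 466 at an unadjusted p under 0.05; DESeq2 called 216 and limma-voom 0.

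Over all 5 stages at once, BMP15 had an unadjusted F test p of 0.0118, rank 213 of 15637, and an adjusted p of 0.820, while GDF9 had an adjusted p of 1.00. The edgeR F test called 0 genes (0%), with 840 at an unadjusted p under 0.05; DESeq2 called 47 and limma-voom 2. Without the low-count filter BMP15 passed this test by edgeR (adjusted p = 0.00182).

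In the ratio of GDF9 to BMP15 within an oocyte the library total, with its mitochondrial part, cancels out. It is a ratio of counts, not of molecules, since the genes differ in length. Over the 51 oocytes with counts of both genes the count ratio had a median of 6.44 and ran from 0.023 in stage 3 gilt 201 oocyte 4 to 197.1 in stage 4 gilt 201 oocyte 1. It was 16 or more in 17 oocytes, between 4 and 16 in another 16, and under 1 in 7. On the deposited length-scaled table the median ratio was 2.20, and BMP15 exceeded GDF9 in 15 of 55 oocytes, 8 of them of gilt 803 and 4 of gilt 801. The log2 ratios from the counts and from that table had a Pearson r of 0.986 over the 51 oocytes. The count ratio was between 1.19 and 4.11 times the table's ratio with a median of 3.23, although a fixed gene length would give a constant.

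Pooled over gilts, which contribute unequally to the stages, the median ratio was high at stages 1 and 5 and lower at stages 2 to 4. At stage 1 it had a median of 19.6 over the 9 oocytes with both genes, and it never fell under 3.17. At stage 2 the median was 3.81 and the range 0.0863 to 24.9 over 12 oocytes. The medians of stages 3 and 4 were 5.21 and 3.94, and stage 5 had 18.4 over 8 oocytes. Without the granulosa-rich libraries the medians from stage 1 to stage 5 were 24.7, 5.40, 5.94, 13.8 and 18.4. Within gilts the order differed, by the mean log2 ratio over oocytes with 1 count added to each gene. From high to low the stages ran 1, 4, 5, 2, 3 in gilt 201 and 3, 4, 5, 1, 2 in gilt 205. They ran 1, 4, 2, 3 in gilt 801, which had no stage 5, and 1, 3, 5, 4, 2 in gilt 803.

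Within each gilt the log2 ratio, taken as a mean over oocytes with 1 count added to each gene, was lower at stage 2 than at stage 1. It was 3.94 at stage 2 against 7.87 at stage 1 in gilt 201, and 1.02 at stage 2 against 2.67 at stage 1 in gilt 205. It was 2.05 at stage 2 against 4.33 at stage 1 in gilt 801, and -0.29 at stage 2 against 3.71 at stage 1 in gilt 803. The ratio was thus lower at stage 2 in 4 of 4 gilts, by 1.65 to 4.00 log2 units. It uses the same BMP15 counts as the level comparison above, so it adds no separate support. Gilt 205 again enters with 1 oocyte at each stage.

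The mean difference was -2.96 ± 1.18 log2 units (SD, n = 4 gilts), a ratio at stage 2 that was 0.128 of that at stage 1. The exact sign-flip permutation test gave p = 0.13, the smallest that 4 gilts allow, and 0.625 after adjustment over the 5 stage pairs. The difference kept its sign in every alternative run for this pair, with values from -3.40 to -2.17. Without stage 1 gilt 201 oocyte 1, which had 5133 counts of GDF9 and 0 of BMP15, it was -2.41.

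By this mean over all oocytes, none of the other 4 stage pairs tested (5 against 1, 3 against 2, 4 against 3 and 5 against 4) moved the same way in every gilt. The log2 ratio differed by -1.07 ± 2.25 between stage 5 and stage 1 (SD, n = 3 gilts; exact p = 0.5, where 0.25 is the smallest possible). Without stage 1 gilt 201 oocyte 1 it was -0.32, with the median over oocytes -0.02, and from -2.35 to -0.25 with single gilts left out. At stage 3 against stage 2 the difference was 0.49 ± 3.89 (n = 4 gilts; exact p = 1.00), with gilt 205 at 4.59 and gilt 201 at -4.60. At stage 4 against stage 3 it was 1.58 ± 4.48 (n = 4 gilts; exact p = 0.875), and without gilt 201 it was -0.64. At stage 5 against stage 4 it was -0.60 ± 1.66 (n = 3 gilts; exact p = 0.750), and without gilt 201 it was 0.31. Only gilt 803 was higher at stage 5, by 0.82, and 2 of its 4 oocytes there had 0 BMP15 counts. The difference was -2.06 by the ratio of summed counts and -0.93 over oocytes with at least 10 counts of both genes. In both settings 3 of 3 gilts were lower at stage 5 (exact sign-flip p = 0.25, the smallest possible). Across all stages the permutation F test on the 19 means gave F = 1.3 and p = 0.331. The pooled SD of the log2 ratio among oocytes of one gilt and stage was 2.05.

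**Figure D3:**
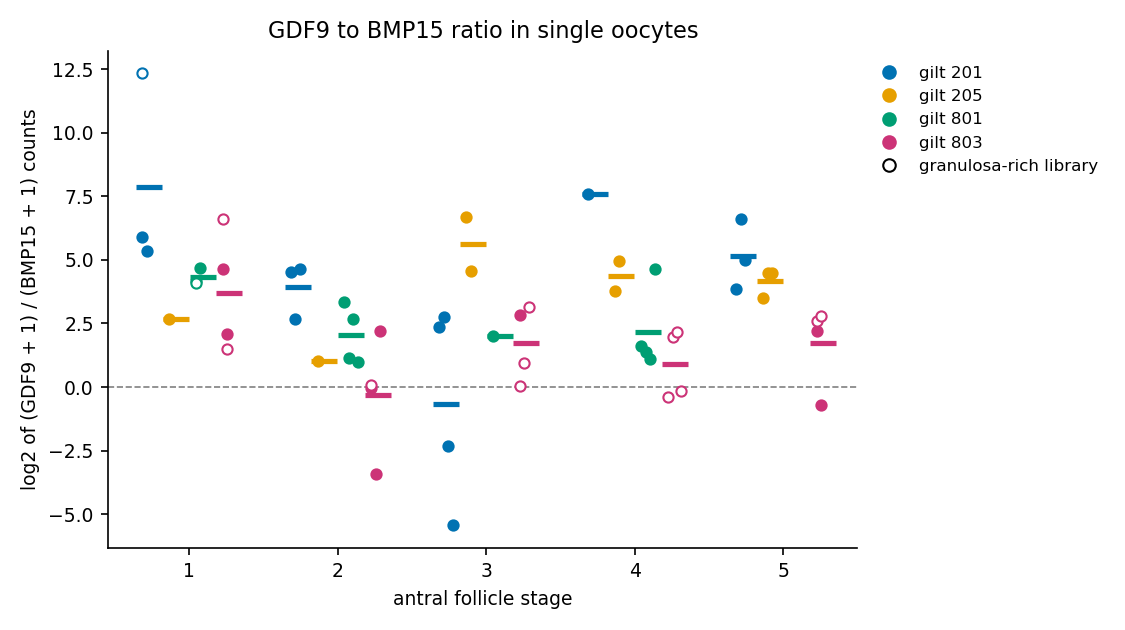
log2 of the GDF9 to BMP15 count ratio, with 1 count added to each gene, in each of 55 oocytes by stage. Colours mark the gilts, thick bars the mean of a gilt at a stage, open points granulosa-rich libraries and the dashed line equal counts; the bars of all 4 gilts are lower at stage 2 than at stage 1, and 7 oocytes lie below the line.

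Across oocytes GDF9 and BMP15 were related only moderately. On log2(CPM + 1) the Pearson r was 0.597 and the Spearman rho 0.630 over 55 oocytes, which share animals and the same granulosa-rich libraries. For deviations from the mean of each gilt and stage r was 0.713, and over the 41 libraries that were not granulosa-rich r was 0.360 and rho 0.520. By gilt, rho was 0.446 over 14 oocytes of gilt 201, 0.700 over 9 of gilt 205, 0.475 over 12 of gilt 801 and 0.631 over 20 of gilt 803. GDF9 followed the summed oocyte markers, which are dominated by zona pellucida genes, with r = 0.912, and BMP15 with r = 0.594. The log2 ratio had a rho of 0.493 with the mitochondrially encoded share of counts, and the part of that share in the ratio was not tested.

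**Figure D4:**
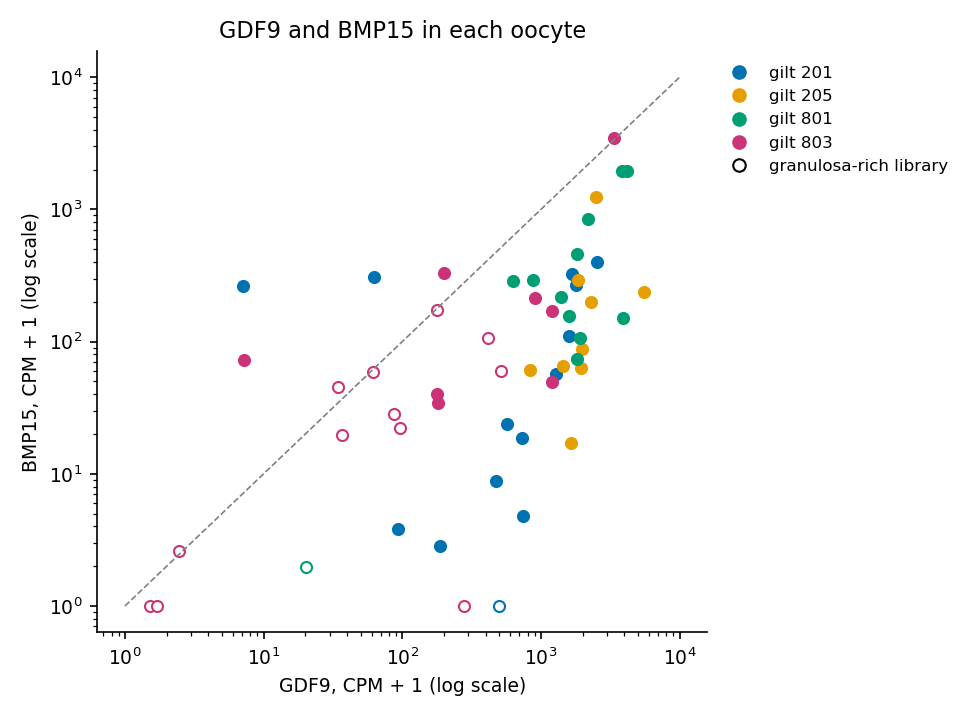
GDF9 (horizontal) against BMP15 (vertical) in each of 55 oocytes, both as CPM + 1 on log scales, with colours for gilts, open points for granulosa-rich libraries and a dashed line of equal values. Most oocytes lie below the line, and stage 3 gilt 201 oocytes 3 and 4, with 61.5 and 6.08 CPM of GDF9, lie far above it.

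The oocytes with more counts of BMP15 than of GDF9 were chosen here after their values were seen. Their GDF9 to BMP15 count ratios ran from 0.023 in stage 3 gilt 201 oocyte 4 to a near-equal 0.975 in stage 2 gilt 803 oocyte 1. BMP15 counts exceeded GDF9 counts in 7 of 55 oocytes, 5 of gilt 803 and 2 of gilt 201, with 0 at stage 1, 2 each at stages 2, 3 and 4, and 1 at stage 5. Stage 3 gilt 201 oocyte 4 had 97 counts of GDF9 (6.08 CPM, 95% Wilson interval 4.99 to 7.42) and 4217 of BMP15 (264.5 CPM, interval 256.6 to 272.6) in 15945427 counts. Stage 3 gilt 201 oocyte 3 had 644 counts of GDF9 (61.5 CPM) and 3198 of BMP15 (305.5 CPM). The other oocytes of gilt 201 at stage 3 had 1684 and 1790 CPM of GDF9, with 323.5 and 268.2 CPM of BMP15. So at stage 3 the 4 oocytes of this gilt were alike in BMP15 and far apart in GDF9.

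In stage 3 gilt 201 oocytes 3 and 4 ZP3 was low together with GDF9. ZP3 stood at 119.4 CPM in stage 3 gilt 201 oocyte 4 and at 65.4 CPM in oocyte 3, where the median over 55 oocytes was 4951 CPM. BTG4, an adaptor of the deadenylase that clears maternal mRNA, stood at 277.2 and 696.6 CPM in oocytes 4 and 3, above its median of 170.6 CPM. Their granulosa and cumulus markers summed to 37.4 and 165.7 CPM, so neither was granulosa-rich. Stage 2 gilt 803 oocyte 3 had 6.21 CPM of GDF9 and 71.95 CPM of BMP15, with ZP3 at 30.0 CPM and BTG4 at 201.9 CPM. Its blood, immune and endothelial markers summed to 10523 CPM beside 1512 CPM of oocyte markers, so its low GDF9 cannot be told apart from RNA of other cells. Stage 5 gilt 803 oocyte 4 had 199.9 CPM of GDF9 and 326.8 CPM of BMP15, with ZP3 at 134.5 CPM and BTG4 at 598.6 CPM. The remaining oocytes with more BMP15 than GDF9 counts differed in part. Stage 2 gilt 803 oocyte 1 had 3355 CPM of GDF9, with ZP3 at 1581 CPM and BTG4 at 2216 CPM. Stage 4 gilt 803 oocytes 1 and 4, both granulosa-rich, had ZP3 at 60.98 and 14.5 CPM. There BTG4 was at 147 and 28.6 CPM, under its median. ZP3 and BTG4 are among the genes most like GDF9 and BMP15 over these same oocytes, so their levels here add no separate support.

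BMP15 had 0 counts in 4 oocytes, all granulosa-rich. Stage 1 gilt 201 oocyte 1 had GDF9 at 498.9 CPM and ZP3 at 3093 CPM, and 0 of 10287958 counts allows BMP15 up to 0.292 CPM. Stage 1 gilt 803 oocyte 1 was shallow, and 0 of 343284 counts allows up to 8.74 CPM. Stage 5 gilt 803 oocytes 1 and 2 had only 5 and 6 counts of GDF9, and 0 counts there allows up to 0.306 and 0.353 CPM of BMP15. Both the intervals and the limits take in counting error alone.

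The 5 genes most like GDF9 and the 5 most like BMP15 are given as a description. By Spearman rho of CPM over 55 oocytes, among 6265 genes with a symbol and a mean of at least 10 CPM, GDF9 was closest to the egg coat genes ZP3 (rho 0.845), ZP2 (0.813) and ZP4 (0.810). NAALAD2, a peptidase, followed with 0.782 and ASTL, the cortical granule protease that cleaves ZP2 after fertilisation, with 0.779. BMP15 ranked 37th for GDF9, with 0.630.

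BMP15 was closest to ZNF648, a zinc finger protein (rho 0.790), OOSP2, an oocyte-secreted protein (0.783), and BTG4 (0.763). MOS, the kinase that holds the egg in metaphase arrest, followed with 0.758 and CUX2, a homeobox factor, with 0.751. GDF9 ranked 41st for BMP15. ZP3 had a rho of 0.845 with GDF9 and 0.382 with BMP15, and BTG4 had 0.763 with BMP15 and 0.452 with GDF9. Among the 41 libraries that were not granulosa-rich, ZP3 had 0.673 with GDF9 and 0.0657 with BMP15, and BTG4 had 0.801 with BMP15 and 0.372 with GDF9. In these 41, ZP3 was 32nd for GDF9 and BTG4 was first for BMP15. None of the 5 genes named for GDF9 stayed near the top there. NAALAD2 ranked 15th, ZP2 63rd, ZP4 71st and ASTL 303rd, while GGT6 was first with a rho of 0.792. For BMP15, OOSP2 ranked 5th, CUX2 8th, ZNF648 9th and MOS 35th. Over 55 oocytes and counts without the mitochondrially encoded genes, ZP3 ranked 1st for GDF9, ZP4 2nd, ZP2 3rd, ASTL 4th and NAALAD2 6th. For BMP15, ACSL3 then ranked 1st, BTG4 2nd, OOSP2 5th, MOS 7th, ZNF648 8th and CUX2 19th. These correlations share libraries and depth and were chosen as the highest, so they are a description.

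**Figure D5:**
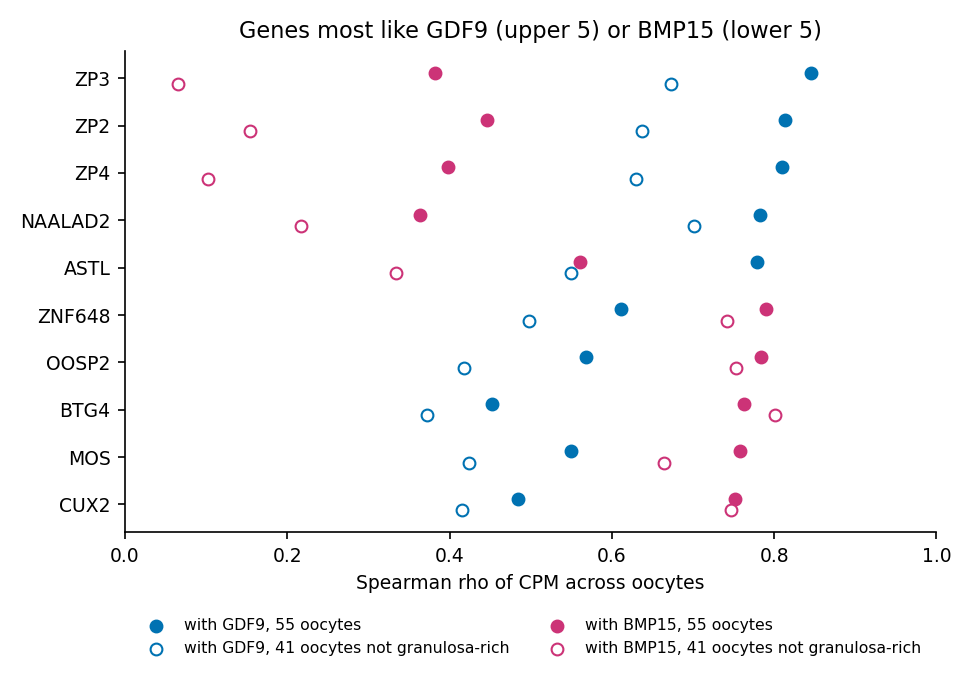
Spearman rho of CPM across oocytes between GDF9 (blue) or BMP15 (pink) and the 5 genes most like each, ZP3 to ASTL for GDF9 and ZNF648 to CUX2 for BMP15. Filled points use 55 oocytes and open points the 41 that were not granulosa-rich; for ZP3 the value with BMP15 was 0.382 over 55 oocytes and 0.0657 over 41.

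The other genes of the pathway, taken by role, gave 0 calls in every stage comparison and in the F test (edgeR, all 8 lists). Among other TGF-beta ligands 14 of 20 listed genes were tested, and INHA and INHBA, the inhibin subunits made by granulosa cells, had the most counts. INHA averaged 381.5 ± 516.3 CPM at stage 5 and 780.6 ± 935.8 CPM at stage 1 (TMM-scaled, SD over gilts), and INHBA 102.1 ± 92.4 CPM at stage 5 and 104.7 ± 82.4 CPM at stage 1. Both are also on the granulosa marker list, and INHA had a median of 2702 CPM in granulosa-rich libraries and 21.7 CPM in the others. Between stage 2 and stage 1 the 14 ligands had 3 positive and 11 negative log2 changes with a median of -2.21, beside 5790 positive and 9847 negative and a median of -0.50 over all 15637 genes tested. At stage 5 against stage 1 the ligands had 8 positive and 6 negative changes, with a median of 0.43.

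Among the receptors 13 of 14 genes were tested. BMPR1B, the type I receptor of BMP15, was at 38.9 ± 18.2 CPM at stage 5 and 23.4 ± 15.1 CPM at stage 1, a log2 change of 0.49 ± 0.954 (edgeR adjusted p = 0.998). ACVR1, another type I receptor, was at 16.7 ± 7.82 CPM at stage 5 and 13.6 ± 10.2 CPM at stage 1. Of the 6 SMAD transducers, SMAD2 averaged 114.7 ± 105.1 CPM at stage 5 and 56.9 ± 15.3 CPM at stage 1, and SMAD5 39.9 ± 16.4 CPM at stage 5 and 25.7 ± 18.5 CPM at stage 1. Of the 7 inhibitory SMADs and their partners, SMURF2, a ubiquitin ligase, was at 36.8 ± 23.8 CPM at stage 5 and 21.5 ± 3.20 CPM at stage 1. SKIL, a SMAD corepressor, was at 8.16 ± 9.10 CPM at stage 5 and 25.3 ± 14.4 CPM at stage 1. None of these named genes passed the test. At stage 5 against stage 1 the receptors had 9 positive and 4 negative log2 changes, with a median of 0.49. The SMAD transducers had 4 positive and 2 negative changes, and the inhibitory SMADs and their partners 2 positive and 5 negative.

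For secreted antagonists 7 of 9 genes were tested, with 0 positive and 7 negative log2 changes at stage 5 against stage 1 and a median of -0.63. Over all genes tested there were 6683 positive and 8954 negative changes with a median of -0.27. FST, or follistatin, averaged 70.2 ± 61.3 CPM at stage 5 and 74.3 ± 50.7 CPM at stage 1, and FSTL3 63.2 ± 44.5 CPM at stage 5 and 86.9 ± 73.2 CPM at stage 1. FST is also a granulosa marker, with a median of 341.7 CPM in granulosa-rich libraries and 8.72 CPM in the others. Among the 4 proprotein convertases FURIN was at 17.5 ± 13.97 CPM at stage 5 and 11.2 ± 8.57 CPM at stage 1, and PCSK5 at 3.65 ± 3.35 CPM at stage 5 and 9.34 ± 5.43 CPM at stage 1. The convertases had 1 positive and 3 negative log2 changes in this comparison.

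The oocyte transcription factors include NOBOX, which activates both growth factor genes in mice. NOBOX was at 32.8 ± 21.9 CPM at stage 5 and 27.6 ± 7.08 CPM at stage 1, a log2 change of 0.43 ± 0.859 (edgeR adjusted p = 0.998). LHX8 was at 24.4 ± 31.3 CPM at stage 5 and 14.8 ± 9.59 CPM at stage 1. The 6 tested transcription factors had 4 positive and 2 negative log2 changes at stage 5 against stage 1, with a median of 0.60. Of 16 genes that oocyte factors are known to regulate in granulosa and cumulus cells, 14 were tested, with 4 positive and 10 negative changes at stage 5 and a median of -0.55. ID3, a BMP-responsive inhibitor of DNA binding, was at 296.3 ± 56.5 CPM at stage 5 and 345.9 ± 285.0 CPM at stage 1. LDHA, a glycolytic enzyme, was at 296.2 ± 371.0 CPM at stage 5 and 91.5 ± 41.1 CPM at stage 1. Neither passed the test.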

How the data were processed

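The authors deposited unnormalized whole-number counts for each Ensembl gene and oocyte. The submitters' processing notes list StringTie 1.2.2, featureCounts, HISAT2 2.1.0 and Trim Galore 0.4.3 with no roles; the build, the annotation and whether strand was used are not stated there. Symbols were known for 14857 of 25880 IDs. A deposited table named for TPM served as an alternative for the ratio only: its columns sum to between 40073.5 and 2990160, so its scale is unknown. CPM used all counts of an oocyte. Total counts per oocyte were between 151104 and 38282850, and with 0 counts a limit of 3 counts was used; intervals are 95% Wilson and, with no molecular identifiers, cover counting error only.

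Counts were summed by gilt and stage (19 sums) and fitted on all 15637 genes passing filterByExpr with edgeR 4.0.16 in R 4.3.3 (TMM, quasi-likelihood, stage and gilt in the model, Benjamini-Hochberg adjusted p under 0.05, two-sided). Tested on data simulated for stage 5 against stage 1, edgeR found 0% of planted 4-fold changes, 12% of 16-fold and 46% of 64-fold changes. At the largest planted size it found 62%, and it made 3 false calls. DESeq2 found 4%, 42%, 70% and 80% at the same sizes, with 221 false calls. A gene that did not pass the edgeR test can therefore still have changed by such amounts. Gilt is a block because the same 4 animals gave nearly every stage; after the stage means were removed, sums of one gilt correlated with a mean r between 0.0124 (gilt 201) and 0.141 (gilt 801), against -0.0318 between gilts. The ratio was log2 of counts plus 1, averaged by gilt and stage, tested by an exact sign-flip permutation test over gilts and, across stages, by a permutation F test (100000 resamples within gilts), in Python 3.11.15 with scipy 1.17.1. DESeq2 1.42.0 and limma 3.58.1 (voom) were alternatives.

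Besides GDF9 and BMP15, the text names the 2 most abundant tested genes of each role list, the 5 genes with the highest Spearman rho to each factor, and single oocytes and genes picked once their values were known. The members and lists were chosen with earlier results of these data known. The study's further data, which its design text describes beside 62 oocytes, are not analysed here.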

Additional observations from a re-analysis of the deposited data

How the results depend on the processing

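Alternatives kept the direction and the side of the threshold (tests across stages, the side alone) in 53 of 72 values for the GDF9 level, 66 of 72 for BMP15 and 74 of 78 for the ratio. The BMP15 change at stage 2 against stage 1 was positive in all settings run and became a call without the low-count filter (3.37), with DESeq2 (3.28) and without gilt 803, with 2.25 to 4.51 over single gilts left out. The BMP15 test across stages was a call without the filter (adjusted p = 0.00182). GDF9 turned in sign at stage 5 against stage 1 with limma-voom (1.00) and with no replicate block (0.38), and over gilts left out ran from -2.07 to 0.30. At stage 2 against stage 1 GDF9 turned with limma-voom (1.67) and without the block (1.44), ranging over gilts left out from -0.83 to 1.28. At stage 3 against stage 2, near 0, it was -0.01 with RLE factors (-0.0107), -0.00843 without the filter, -0.0106 with DESeq2, -0.00224 without the block and -0.20 with each oocyte as a library, and -0.12 to 0.25 over gilts left out. At stage 5 against stage 4 it was -0.11 with RLE factors and with DESeq2, -0.0269 without the filter, -0.27 without granulosa-rich libraries and -0.16 to 0.18 over gilts left out. BMP15 turned at stage 5 against stage 4 with limma-voom (-0.0618), and at stage 3 against stage 2 ran from -2.50 to 0.22 over gilts left out.

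The log2 ratio ranged over gilts left out from -0.87 to 2.19 at stage 3 against stage 2, -0.64 to 2.53 at stage 4 against stage 3 and -1.31 to 0.31 at stage 5 against stage 4. Without the block its difference at stage 2 against stage 1 was the same, -2.96 (exact permutation p = 0.0857). Leaving out stage 1 gilt 201 oocyte 1 was chosen after seeing the data. Genes called, 0 in the design's fit, numbered 23, 111, 29, 14 and 4 without the low-count filter for stages 5 against 1, 2 against 1, 3 against 2, 4 against 3 and 5 against 4, and 365, 415, 311, 266 and 216 with DESeq2. Across stages they numbered 216 without the filter, 47 with DESeq2, 2 with limma-voom and 34 with each oocyte as a library, which gave 3 at stage 3 against stage 2. Over single gilts left out the counts were 0 to 1 (5 against 1), 0 to 50 (2 against 1), 0 to 7 (3 against 2), 0 to 1 (5 against 4) and 0 to 45 (across stages). The cause of these differences was not tested. Depth limits BMP15 in the shallow libraries of gilt 803, where 3 counts amount to as much as 8.74 CPM in an oocyte listed at 0.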
